A study of Rattus norvegicus with 63 samples.

Results

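The 5 genes described here, Kcnj10, S100b, Gja1, Apoe and Vim, are expressed by astrocytes, and they were followed over 6 regions of the rat brain in animals with different daily access to cocaine. They were chosen by name, with earlier results of these data known. Every probe set of the deposited table whose only gene symbol is one of the 5 was taken. Counts of called members beside the share of all probe sets are therefore descriptions. This gave 8 of the 1263 probe sets outside the array's 59 controls, and each is shown on its own: U27558_at and X83585cds_s_at for Kcnj10, rc_AI146214_at and S53527mRNA_s_at for S100b, rc_AI029183_s_at for Gja1, S76779_s_at and X04979_at for Apoe, and X62952_at for Vim. By their names' suffix, X83585cds_s_at, S53527mRNA_s_at, rc_AI029183_s_at and S76779_s_at hold probes shared with another transcript. The rats formed 3 groups of 8: drug-naive controls with 0 h of access per day, short access rats with 1 h and long access rats with 6 h of intravenous cocaine self-administration per day, at 0.25 mg per injection on a continuous schedule. Strain, sex and age are not given in the sources used here. RNA of the nucleus accumbens, amygdala and lateral hypothalamus was measured on 4 arrays per access group, and that of the medial prefrontal cortex, septum and ventral tegmental area on 3, on Affymetrix Rat Neurobiology U34 arrays, 63 in all. Whether an array stands for 1 rat or a pool is not given, so p-values measure the spread between these arrays, which may be technical.

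Astrocytes clear potassium and glutamate from the space around neurons, share solutes through gap junctions and supply neurons with lipids. Kcnj10 encodes the inward rectifier channel Kir4.1, which carries most of the potassium conductance of astrocytes and is also made by oligodendrocytes. Gja1 encodes connexin 43, the main gap junction protein of astrocytes. S100b encodes a calcium-binding protein of astrocytes and some oligodendrocytes that is also secreted. Apoe encodes the main lipid carrier that astrocytes release. Vim encodes vimentin, an intermediate filament of immature and reactive astrocytes that is also abundant in vessel walls, ependyma and meninges. In dissected tissue, fewer cells of a type and less RNA per cell cannot be told apart.

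Values are the authors' signals, rescaled to a common mean, floored at a signal of 32 and put on the log2 scale, so 1 unit is a doubling. A difference is called where its adjusted p from limma, over every probe set tested in that comparison, was under 0.05. Median signals per array ran from 119 to 168. Arrays stood apart in several regions, by access group or by number. The 4 lateral hypothalamus arrays with no access had a mean log2 signal over the 6 antisense controls of 7.84 to 8.33, against 6.55 to 7.09 on the region's other arrays, and a spike-in mean of 11.94 to 12.18 against 11.23 to 11.85. Both separations from long access had p = 0.0286, the smallest that a two-sided exact permutation test of 4 against 4 arrays allows, and adjusted p = 0.0857 over 12 such tests. Over all probe sets tested, these 4 arrays correlated best with the mean of the ventral tegmental area (r from 0.906 to 0.912), and the other 8 with that of the septum (0.902 to 0.920). In the medial prefrontal cortex the arrays numbered 3 had beta-actin 3' minus 5' controls of 1.93 (no access), 1.58 (short) and 1.35 (long) on the log2 scale, long access array 2 had 0.78, and the other 5 had -0.01 to 0.27. In the ventral tegmental area the 3 long access arrays had antisense controls of 7.82 to 8.16, against 7.07 to 7.49 on the other 6, and a spike-in mean of 12.25 to 12.44 against 11.40 to 12.01. In the septum the spike-in mean was 11.08 to 11.19 on the 3 long access arrays and 10.58 to 11.05 on the other 6. In the amygdala, no access array 3 had antisense controls of 7.98, against 6.26 to 7.22 on the other 11.

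**Figure D1:**
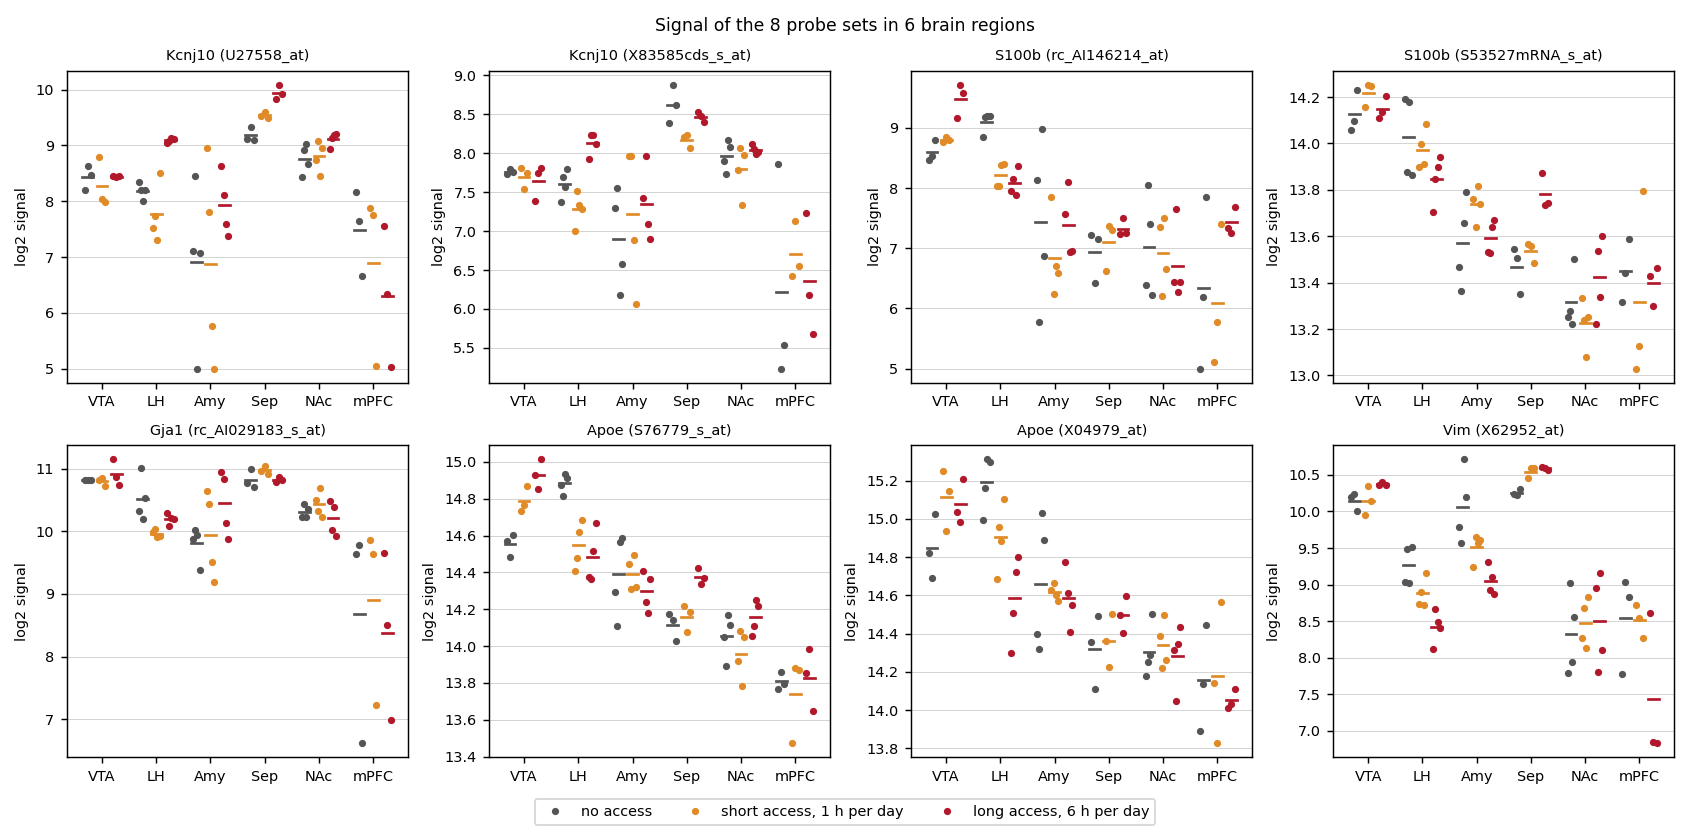
Log2 signal of the 8 probe sets on every array (points) in the ventral tegmental area (VTA), lateral hypothalamus (LH), amygdala (Amy), septum (Sep), nucleus accumbens (NAc) and medial prefrontal cortex (mPFC), with the mean of each access group (bars); each panel has its own axis, which does not start at 0. S100b and Apoe are highest in VTA and LH, Kcnj10 in the septum, and the points of mPFC and the amygdala scatter most for Kcnj10 and Gja1.

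Across regions the 5 genes did not share an order. Under the scaling used here Kcnj10 was highest in the septum, S100b and Apoe in the ventral tegmental area, and Gja1 and Vim in the septum followed by the ventral tegmental area. All 8 probe sets were lower in the medial prefrontal cortex than the average of the 5 other regions, a comparison in which 67.2% of the 858 probe sets tested were called. Kcnj10 on X83585cds_s_at and S100b on rc_AI146214_at had mean signals of 86.0 and 98.6 there, under the filter of 100. They were tested because they passed it in the 5 other regions. The counts in the other regions were 6 of 8 for the ventral tegmental area, all higher, against a background of 68.5%. The lateral hypothalamus had 5 called, 4 of them higher, against 55.5%, and the septum also 5, 4 of them higher, against 50.9%. The nucleus accumbens had 7, of which 2 were higher, against 65.9%, and the amygdala 3, of which 1 was higher, against 50.1%. Since most probe sets differed between regions, these counts are read only as a description. Array controls also differed between regions. Antisense means were 7.07 to 8.16 in the ventral tegmental area, 6.55 to 8.33 in the lateral hypothalamus and 6.26 to 7.98 in the amygdala. They were 6.13 to 6.67 in the septum, 6.20 to 6.80 in the nucleus accumbens and 5.99 to 6.99 in the medial prefrontal cortex. The part of these controls in the regional differences was not tested.

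The potassium channel gene Kcnj10 had its highest signals in the septum. On U27558_at the 9 septal arrays lay between 9.10 and 10.09 (median 9.52), and the region exceeded the mean of the other 5 by 1.60 ± 0.27 (log2, SE; adjusted p = 1.98e-06, limma). The 12 arrays of the nucleus accumbens followed at 8.43 to 9.20 (median 8.95), then the ventral tegmental area at 7.98 to 8.80 (8.45) and the lateral hypothalamus at 7.31 to 9.13 (8.27). The septum did not overlap the ventral tegmental area, the amygdala or the medial prefrontal cortex, where the 9 arrays ran from 5.02 to 8.16 (7.55). The amygdala was the most scattered region, from the floor of 5.00, reached on 1 array with no access and 1 with short access, to 8.96. X83585cds_s_at gave the same order of 6 regions, with a septal excess of 1.04 ± 0.17 and a deficit in the medial prefrontal cortex of -1.35 ± 0.17 (log2, SE), against -1.59 ± 0.27 on U27558_at.

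Gja1, the connexin gene, had nearly equal signals in the septum and the ventral tegmental area. Its 9 arrays ran from 10.71 to 11.05 (median 10.86) in the septum and from 10.72 to 11.15 (10.82) in the ventral tegmental area, and these ranges overlapped almost completely. The excess over the mean of the other 5 regions was 0.85 ± 0.22 (adjusted p = 0.000723) and 0.82 ± 0.22 (0.000818) on the log2 scale (SE, limma). The nucleus accumbens (9.93 to 10.69), the lateral hypothalamus (9.91 to 11.01) and the amygdala (9.20 to 10.95) came next with overlapping ranges. The medial prefrontal cortex was lower by 1.81 ± 0.22 on average, but its arrays fell into separate levels: 5 lay between 9.63 and 9.86, and the other 4 at 8.50, 7.22, 6.98 and 6.61. They are the arrays with the high beta-actin 3' to 5' difference. Without the arrays numbered 3 the deficit was -0.95 ± 0.13 (log2, SE; adjusted p = 1.32e-08, limma), the septal excess 0.68 ± 0.11 and that of the ventral tegmental area 0.64 ± 0.11.

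**Figure D2:**
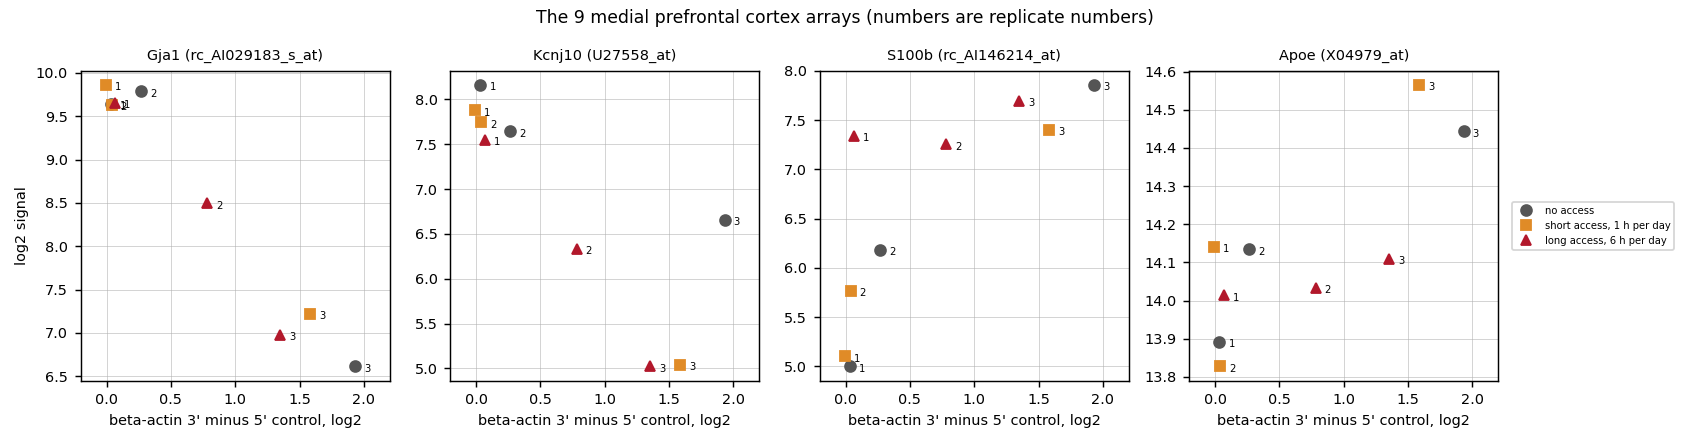
Log2 signal of Gja1, Kcnj10, S100b and Apoe on the 9 medial prefrontal cortex arrays against the log2 difference between the 3' and 5' beta-actin controls of the same array; point labels are replicate numbers. The arrays numbered 3 lie at 1.35 to 1.93 on the x axis, with Gja1 at 6.61 to 7.22, and S100b at 7.40 to 7.86.

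The same cortical arrays were not low in every gene. Kcnj10 on U27558_at was 6.66, 5.04 and 5.02 on the arrays numbered 3 and 7.55 to 8.16 on 5 of the others, with long access array 2 at 6.33. The dim S100b probe set rc_AI146214_at moved the other way, at 7.86, 7.40 and 7.69 on the arrays numbered 3, while arrays 1 and 2 lay at 5.00 and 6.18 with no access and 5.10 and 5.77 with short access, and at 7.34 and 7.25 with long access. Apoe on X04979_at was 14.44, 14.57 and 14.11 on the arrays numbered 3 and 13.83 to 14.14 on the rest. Without the arrays numbered 3 each of the 8 cortical deficits was still called, with Kcnj10 at -0.93 ± 0.28 instead of -1.59 on U27558_at and S100b at -1.62 ± 0.25 instead of -1.11 on rc_AI146214_at (log2, SE). The part of RNA or labelling quality in these values was not tested beyond that.

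S100b and Apoe had nearly the same order of regions. On the bright S100b probe set S53527mRNA_s_at the arrays ran from 14.06 to 14.25 (median 14.16) in the ventral tegmental area, from 13.70 to 14.19 (13.90) in the lateral hypothalamus, from 13.36 to 13.82 (13.65) in the amygdala, from 13.35 to 13.87 (13.56) in the septum, from 13.03 to 13.79 (13.43) in the medial prefrontal cortex and from 13.08 to 13.60 (13.27) in the nucleus accumbens. The ventral tegmental area exceeded the mean of the other 5 by 0.59 ± 0.05 (adjusted p = 2.41e-14, limma) and overlapped only the lateral hypothalamus. Over 11 changed settings this excess ran from 0.04 to 0.61, and 1 of them lost the call (adjusted p = 0.464, limma). On rc_AI146214_at, whose lowest value, on 1 cortical array, lay at the floor, that excess was 1.70 ± 0.24, and the lateral hypothalamus stood 1.10 ± 0.21 above the other regions (log2, SE). S53527mRNA_s_at was among the 10 brightest probe sets on 62 of 63 arrays, and its regional differences were smaller than those of rc_AI146214_at in the 4 regions where both were called.

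Apoe, the lipid carrier, had signals on X04979_at of 14.69 to 15.25 (median 15.03) in the ventral tegmental area and 14.30 to 15.31 (14.92) in the lateral hypothalamus. The amygdala (14.32 to 15.03), septum (14.11 to 14.60), nucleus accumbens (14.05 to 14.50) and medial prefrontal cortex (13.83 to 14.57) came below, in that order and with overlapping ranges. The excess of the ventral tegmental area was 0.54 ± 0.07 on X04979_at and 0.54 ± 0.05 on S76779_s_at, and that of the lateral hypothalamus 0.40 ± 0.06 and 0.40 ± 0.04 (log2, SE). With quantile normalization, which holds the brightest probe sets near 1 value, the ventral tegmental area was at -0.0061 and -0.13, the second called. The lateral hypothalamus was then at -0.0052 on S76779_s_at. The values that follow are under the scaling used here. The excess of the lateral hypothalamus was smaller without its no access arrays: in the short and long access arrays alone the excess was 0.23 ± 0.07 and 0.25 ± 0.05, and in the no access arrays alone 0.73 ± 0.12 and 0.70 ± 0.08, all 4 called. The same held for S100b on rc_AI146214_at, with 0.74 ± 0.20 and 1.84 ± 0.46, both called.

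Vim, the filament gene, was highest in the septum at 10.23 to 10.60 (median 10.57) and next in the ventral tegmental area at 9.95 to 10.40 (10.24). These regions exceeded the mean of the others by 1.42 ± 0.14 (adjusted p = 2.66e-12) and 1.13 ± 0.14 (6.08e-10) on the log2 scale (SE, limma). The amygdala ran from 8.87 to 10.71, the lateral hypothalamus from 8.12 to 9.51, the nucleus accumbens from 7.79 to 9.16 and the medial prefrontal cortex from 6.83 to 9.04. No array of these last 3 regions reached the septum or the ventral tegmental area. The amygdala was called higher than the other regions by 0.32 ± 0.13 (adjusted p = 0.0305), a call lost with adjusted p between 0.0519 and 0.102 when any of 4 amygdala arrays was left out (no access 3 or 4, short access 2, long access 1). It was 0.76 ± 0.22 in the no access arrays alone and 0.10 ± 0.14 in the others (adjusted p = 0.012 and 0.618, limma), and the deficit of the lateral hypothalamus, -0.51 ± 0.13 over all arrays, was -0.21 ± 0.22 with no access (adjusted p = 0.474, limma).

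Which neighbours in these orders differed beyond their spread was tested for the 5 neighbouring pairs of each of the 8 probe sets, by a two-sided exact permutation of region labels within access groups, and 19 of the 40 pairs passed at an adjusted p under 0.05. For Kcnj10 the septum stood above the nucleus accumbens on both probe sets (differences of 0.66 and 0.48, adjusted p = 0.000233 and 0.000373, exact), and the nucleus accumbens above the ventral tegmental area. The ventral tegmental area and the lateral hypothalamus were not told apart (0.03 on both), nor were the amygdala and the medial prefrontal cortex (0.35 and 0.73). For S100b on S53527mRNA_s_at the ventral tegmental area exceeded the lateral hypothalamus by 0.22 (adjusted p = 0.00373, exact), and the lateral hypothalamus the amygdala by 0.31. For Apoe the ventral tegmental area and lateral hypothalamus did not pass (0.12 on both probe sets, adjusted p = 0.308 and 0.426, exact permutation). For Gja1 the septum and the ventral tegmental area differed by 0.03 (adjusted p = 0.652, exact permutation), and only the steps from the ventral tegmental area to the nucleus accumbens (0.53) and from the amygdala to the medial prefrontal cortex (1.41) passed. For Vim the first 3 steps passed, at 0.24, 0.68 and 0.69.

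**Figure D3:**
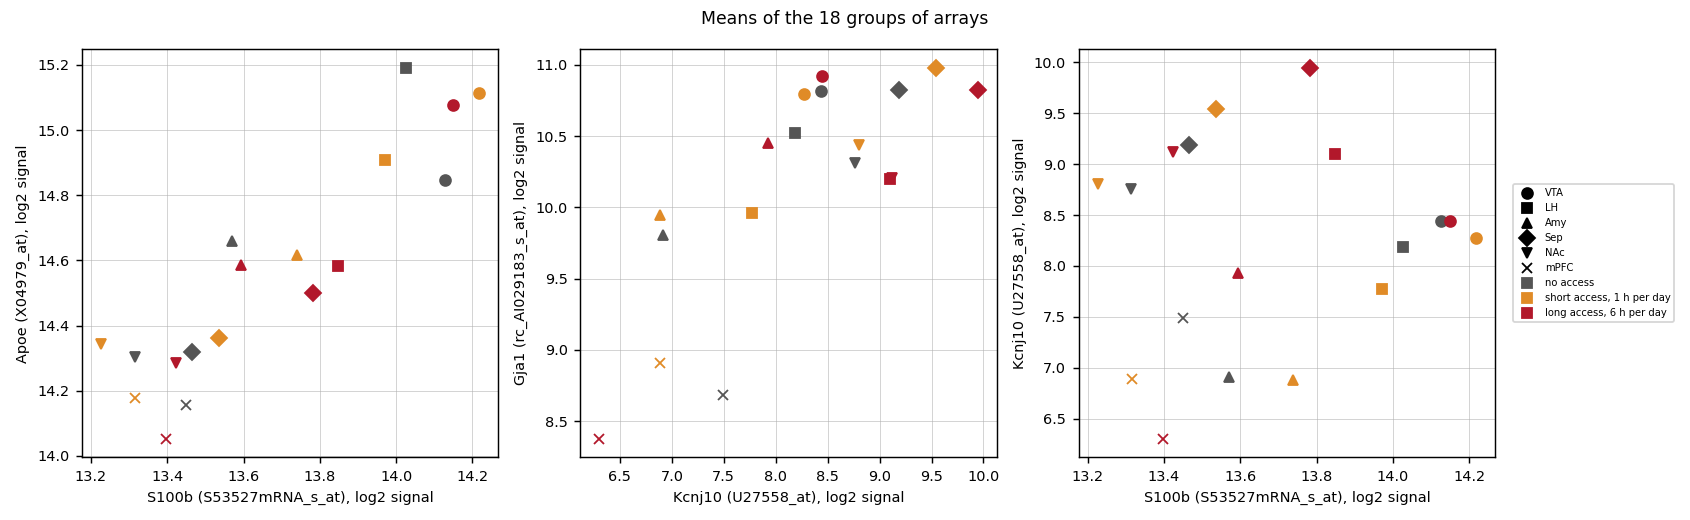
Means of the 18 groups of region (symbol) and access (colour) for pairs of probe sets, log2 signal on both axes: S100b against Apoe, Kcnj10 against Gja1, and S100b against Kcnj10. S100b and Apoe lie along a line (r = 0.905), Kcnj10 and Gja1 more loosely (r = 0.768), and S100b and Kcnj10 show no line (r = 0.111).

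Over the 18 group means, 2 probe sets of the same gene correlated at r = 0.964 for Apoe, 0.906 for Kcnj10 and 0.880 for S100b. Between genes, S100b and Apoe reached 0.886 to 0.916 over their 4 pairings, Kcnj10 and Gja1 0.768 and 0.861, and Kcnj10 and S100b 0.111 to 0.199. These values are descriptions over groups that share arrays and normalization. Among 521 other genes, the closest to the bright S100b probe set were Slc2a1 (r = 0.957), the glucose transporter of vessels and glia, Pebp1 (0.953), Cntf (0.929), a neurotrophic cytokine made by astrocytes, and Sod1 (0.920). The closest to Apoe on X04979_at were Slc2a1 (0.908), S100b (0.905), Il18 (0.881) and Cntf (0.869). The closest to Kcnj10 on U27558_at were the potassium channel gene Kcna6 (0.919), Bcl2l1 (0.871), Syt11 (0.855) and Stx6 (0.841). Gja1 was closest to Rack1 (0.893), the glutamine synthetase gene Glul (0.877), Ckb (0.866) and Ncam1 (0.861). Vim was closest to Igf2 (0.955) and Igfbp2 (0.878), a growth factor and a binding protein made in meninges and choroid plexus, then Hspb1 (0.858) and Plat (0.847). These are Pearson correlations, and the closest genes depend on the measure. By Spearman rank correlation Cd48 was closest to Vim (0.853), with neither Igf2 nor Igfbp2 among the first 4. Jun was then closest to Apoe (0.901) and Pld1 to Gja1 (0.914).

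The sequence before the start of 4 of the genes, whose regional patterns differ, is shown so that the members can be compared at the sequence level (all 5 had an entry), 150 bases up to the last base before the gene as RefSeq annotates it on GRCr8, 5′ to 3′ on the gene's strand. Kcnj10 lies at chr13:87334360-87334509 (plus strand), S100b at chr20:12381160-12381309 (minus strand), Gja1 at chr20:36302340-36302489 (plus strand) and Vim at chr17:81577111-81577260 (plus strand). Capitals mark matches, on either strand, to the letters TATAAA (the TATA box), CCAAT (the CCAAT box), GGGCGG (the GC box), TGANTCA (the AP-1 site), TTGGC (part of the site of nuclear factor I, which has astrocyte genes among its targets) or TTCNNNGAA (the STAT site). CCAAT read on the other strand can overlap TTGGC.
Kcnj10: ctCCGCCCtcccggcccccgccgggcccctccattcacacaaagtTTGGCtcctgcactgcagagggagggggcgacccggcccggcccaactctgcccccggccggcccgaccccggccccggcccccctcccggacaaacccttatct
S100b: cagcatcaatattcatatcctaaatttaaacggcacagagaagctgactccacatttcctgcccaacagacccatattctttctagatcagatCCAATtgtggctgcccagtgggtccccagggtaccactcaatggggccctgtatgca
Gja1: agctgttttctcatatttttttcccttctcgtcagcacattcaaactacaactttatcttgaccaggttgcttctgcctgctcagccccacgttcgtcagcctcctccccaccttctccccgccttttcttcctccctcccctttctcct
Vim: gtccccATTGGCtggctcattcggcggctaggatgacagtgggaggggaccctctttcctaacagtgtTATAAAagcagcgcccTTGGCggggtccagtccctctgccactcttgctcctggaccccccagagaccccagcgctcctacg
The Vim window holds TATAAA, a motif found in 8.0% of the 33465 windows of the same length and place in the RefSeq table, and TTGGC at 2 places, 1 of them overlapping a CCAAT on the other strand. Windows with CCAAT made up 23.5%, those with TTGGC 27.3% and those with GGGCGG 26.0% of all, and the rarer motifs TGANTCA and TTCNNNGAA, in 3.69% and 4.41%, matched in none of the 4. Kcnj10 held 1 GGGCGG and 1 TTGGC with 75.3% G and C, S100b 1 CCAAT with 48.0%, and Gja1 no match with 50.7%. A match is a description of letters, not of binding.

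In the lateral hypothalamus, Kcnj10 was higher with long than with no access on both probe sets, and Apoe, Vim and 1 of the 2 probe sets of S100b were lower. Of the 8 probe sets 6 were called, 2 higher and 4 lower, where 29.7% of the 718 probe sets tested were called. With each gene at its brightest probe set, the median difference over the 5 genes was -0.32, against -0.03 over all probe sets tested. With short against no access 3 were called, all lower, against a background of 22.4%, and with long against short access 2, both Kcnj10 and both higher, against 8.91%. The first and second comparisons share the no access arrays whose controls stood apart, so each is given with its own arrays below.

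**Figure D4:**
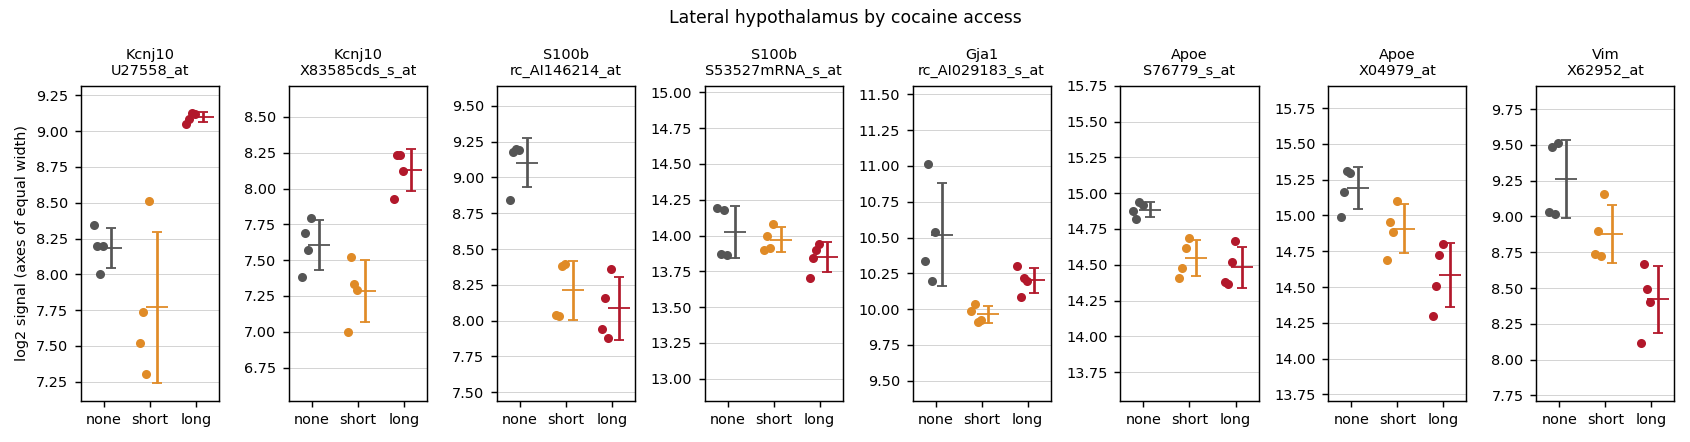
Log2 signal of the 8 probe sets on the 12 lateral hypothalamus arrays by access group (points, 4 per group), with mean and SD beside them, on axes of equal width. Kcnj10 is highest with long access on both probe sets, and the dim S100b probe set, Apoe and Vim are highest with no access.

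Kcnj10 on U27558_at read 8.34, 8.19, 8.00 and 8.20 with no access, 7.52, 7.74, 7.31 and 8.51 with short access and 9.05, 9.08, 9.13 and 9.12 with long access. The 4 long access arrays lay within 0.1 of each other and above all others, while short access array 4 reached above the no access arrays. Long exceeded no access by 0.91 ± 0.20 (1.88-fold, adjusted p = 0.00328) and short access by 1.33 ± 0.20 (2.51-fold, 0.000944) on the log2 scale (SE, limma). X83585cds_s_at read 7.38, 7.69, 7.57 and 7.79 with no access, 7.00, 7.52, 7.33 and 7.29 with short access and 7.93, 8.23, 8.24 and 8.12 with long access. Here too long access was above both other groups without overlap, by 0.52 ± 0.15 (adjusted p = 0.0153) and 0.85 ± 0.15 (0.00295, limma). The first had an adjusted p of 0.0502 without no access array 1 (0.45 ± 0.16, limma). The short and no access groups overlapped on both probe sets, at -0.41 ± 0.20 and -0.32 ± 0.15 (adjusted p = 0.146 and 0.128, limma). Without short access array 4, 5 members in place of 3 were called for short against no access. Over all probe sets, leaving out 1 array at a time gave 114 to 167 called in that comparison, against 161 of 718 with every array. The contrast of long with short access does not use the no access means. Its antisense controls overlapped (6.55 to 6.87 against 6.73 to 7.09), and their part was not tested. Its beta-actin 3' minus 5' controls were 0.125 to 0.290 with long and 0.285 to 0.455 with short access. That difference had p = 0.0571 and adjusted p = 0.137 (exact permutation).

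S100b gave different answers on its 2 probe sets. The dim rc_AI146214_at read 8.84, 9.18, 9.20 and 9.19 with no access, 8.04, 8.03, 8.38 and 8.40 with short access and 7.94, 8.16, 7.88 and 8.36 with long access. Both cocaine groups lay below every no access array, by 0.89 ± 0.14 (1.86-fold, adjusted p = 0.000418) and 1.02 ± 0.14 (2.02-fold, 9.99e-05, limma), and overlapped each other. The bright S53527mRNA_s_at read 14.19, 13.87, 14.18 and 13.86 with no access, 13.90, 14.00, 13.91 and 14.08 with short access and 13.70, 13.85, 13.90 and 13.94 with long access. Its groups overlapped throughout and long minus no access was -0.18 ± 0.09 (adjusted p = 0.132, limma).

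Apoe was lower with long access on both probe sets under the scaling used here. With quantile normalization, which holds the brightest probe sets near 1 value, long minus no access was -0.045 on X04979_at and -0.0074 on S76779_s_at. Neither was then called (adjusted p = 0.375 and 0.948, limma). X04979_at read 14.99, 15.16, 15.31 and 15.30 with no access, 14.69, 14.96, 14.89 and 15.10 with short access and 14.30, 14.51, 14.72 and 14.80 with long access. Long access lay below no access without overlap, by 0.61 ± 0.11 (1.52-fold, adjusted p = 0.000881), and short access lay between and overlapped both, at -0.28 ± 0.11 against no access (adjusted p = 0.0826, limma). S76779_s_at read 14.82 to 14.94 with no access, 14.41 to 14.68 with short and 14.36 to 14.67 with long access. Both cocaine groups were below the no access arrays, by 0.34 ± 0.08 (adjusted p = 0.00605) and 0.40 ± 0.08 (0.00106, limma), and they overlapped each other.

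The replicate numbers of the short and long access arrays went with shared deviations in this region (r from 0.159 to 0.337 over the 4 pairs), and with the number as a block 4 members rather than 2 were called for long against short access, where 14.3% of all were called. The members added were Apoe on X04979_at, at -0.32 ± 0.05 (adjusted p = 0.0031, against 0.0797 without the block, limma), and Vim, whose values follow.

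Vim read 9.03, 9.49, 9.02 and 9.51 with no access, 8.73, 8.90, 8.73 and 9.16 with short access and 8.12, 8.67, 8.49 and 8.40 with long access. Long access lay below both other groups without overlap, by 0.84 ± 0.16 against no access (1.79-fold, adjusted p = 0.000933) and by 0.46 ± 0.16 against short access, which was not called (adjusted p = 0.0775, or 0.0269 with the replicate block, limma). Gja1 read 10.33, 11.01, 10.19 and 10.54 with no access, 9.99, 10.03, 9.91 and 9.92 with short access and 10.30, 10.08, 10.22 and 10.20 with long access. Short access was below no access by 0.56 ± 0.14 (adjusted p = 0.0104, limma), with no access array 2 the highest of all 12. Long access overlapped no access, at -0.32 ± 0.14 (adjusted p = 0.0958, limma).

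With the spike-in level of each array as a covariate, 2 members were still called for long against no access: Kcnj10 on U27558_at (1.59 ± 0.34) and S100b on rc_AI146214_at (-1.21 ± 0.28). The other 4 were not called: Kcnj10 on X83585cds_s_at at 0.56 ± 0.30, Apoe at -0.44 ± 0.15 and -0.58 ± 0.23 and Vim at -0.81 ± 0.32, with adjusted p of 0.281, 0.103, 0.138 and 0.135 (limma). Their errors were 0.15 to 0.32, in place of 0.08 to 0.16 without the covariate. For long against short access both Kcnj10 calls held, at 1.56 ± 0.20 and 0.86 ± 0.17. In a fit of all 63 arrays at once, which gives each probe set 1 spread for all regions, the calls left were both Apoe probe sets and Vim for long access and S76779_s_at for short access. The Kcnj10 differences then had adjusted p of 0.282 and 0.360 against no access and 0.222 on both probe sets against short access, with errors of 0.54 and 0.34 in place of 0.20 and 0.15.

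Of 33 other genes of astrocytes, 11 had a probe set of their own and 10 were tested in the lateral hypothalamus. With long against no access 1 was called higher, Atp1b2 (1.39 ± 0.16), a sodium pump subunit, and 4 lower: the metallothioneins Mt3 (-0.77 ± 0.13) and Mt2A (-0.41 ± 0.15), the potassium channel partner Kcnj16 (-0.60 ± 0.14) and Glul (-0.21 ± 0.05). The 5 called of 10 stand beside the 29.7% called of all probe sets, and their median was -0.17, against -0.03 over all. The 5 not called were the glutamate transporter genes Slc1a2 and Slc1a3, the GABA transporter gene Slc6a11, Mt1 and Nes, between -0.24 and 0.11. Kcnj16, whose product joins that of Kcnj10 in a common channel, was thus lower where Kcnj10 was higher. With short against no access Atp1b2 (0.50 ± 0.16) was higher and Glul (-0.56 ± 0.05), Kcnj16 (-0.65 ± 0.14) and Mt3 (-0.45 ± 0.13) lower, with a median of -0.23 against -0.07 and 22.4% called of all. With long against short access Atp1b2 (0.89 ± 0.16) and Glul (0.35 ± 0.05) were higher and none lower, with 8.91% called of all.

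Markers of other cells differed too, in the comparison in which 29.7% of all probe sets were called. Of 17 oligodendrocyte genes 8 were tested, and long against no access gave 2 higher, Sox10 (1.14 ± 0.11) and Mag (0.55 ± 0.08), and 4 lower, Pdgfra (-0.49 ± 0.12), Mbp (-0.36 ± 0.09), Mog (-0.30 ± 0.06) and Tf (-0.19 ± 0.07). The log2 of the summed signal of the 8, in which the brightest genes weigh most, was 15.65 to 15.81 with no access, 15.63 to 15.83 with short and 15.42 to 15.61 with long access. This sum lay lower with long access than in both other groups, though Sox10 and Mag were higher than with no access. Of 14 vessel genes 2 were tested, and Slc2a1 was lower (-0.71 ± 0.12), with a summed level of at least 11.74 with no access, 11.21 to 11.60 with short and 11.05 to 11.53 with long access. Of 13 microglia and immune genes 2 were tested and both were lower, B2m (-0.67 ± 0.10) and Il18 (-0.59 ± 0.14), with summed levels, over 3 genes with the one below the filter, of 11.62 to 11.83, 11.33 to 11.53 and 10.86 to 11.22. Of 14 genes of choroid plexus, ependyma and meninges 2 were tested, Igf2 and Igfbp2, and neither was called (0.07 ± 0.25 and -0.07 ± 0.36), with summed levels of 9.52 to 10.86, 9.84 to 10.23 and 9.88 to 10.52. Of 12 neuron genes 8 were tested, giving 1 higher, Syp (0.36 ± 0.06), and 2 lower, Nefh (-0.41 ± 0.09) and Nefm (-0.37 ± 0.08), with overlapping summed levels of 14.89 to 15.04. The summed level of the 11 other astrocyte genes was 14.61 to 14.78, 14.26 to 14.51 and 14.44 to 14.69. The part of these cells in the differences of Kcnj10, S100b, Apoe and Vim was not tested.

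**Figure D5:**
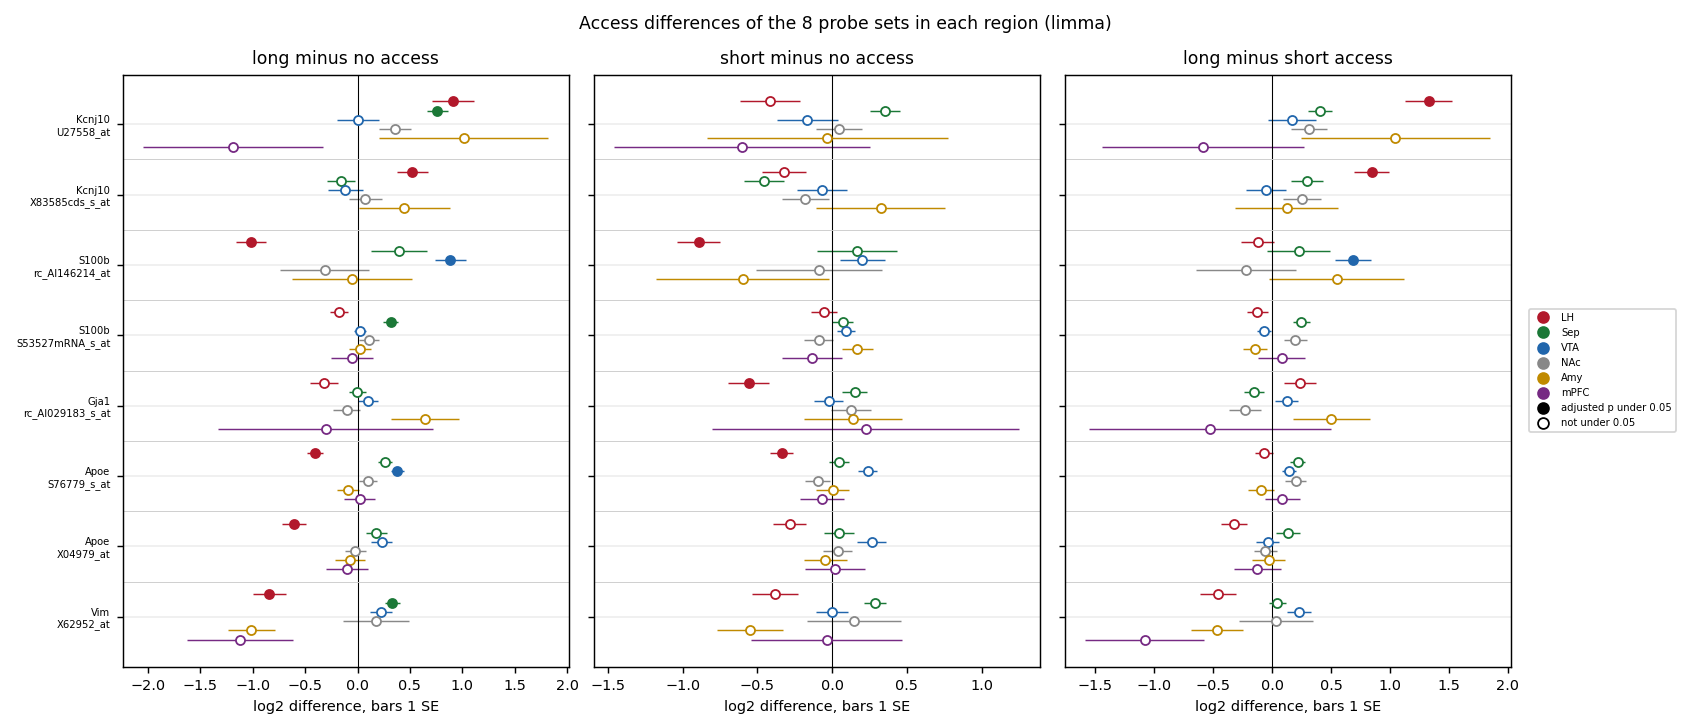
Log2 differences between access groups for the 8 probe sets in the 6 regions, with bars of 1 SE from the limma fit of each region; filled points had an adjusted p under 0.05. In LH both Kcnj10 points lie right of 0 for long access and those of Apoe and Vim left of it; the septum and VTA points that passed all lie to the right.

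In the septum 3 probe sets were called with long against no access, all higher, where 2.31% of 736 were called. Kcnj10 on U27558_at read 9.12, 9.33 and 9.10 with no access, 9.52, 9.60 and 9.50 with short access and 9.83, 10.09 and 9.92 with long access. The 3 groups did not overlap, and long exceeded no access by 0.76 ± 0.10 (1.69-fold, adjusted p = 0.000661), with short access at 0.35 ± 0.10 above no access (0.103) and 0.41 ± 0.10 below long access (0.0547, limma). The other Kcnj10 probe set did not share this: X83585cds_s_at read 8.38, 8.88 and 8.62 with no access, 8.20, 8.24 and 8.07 with short and 8.52, 8.48 and 8.40 with long access, a difference of -0.16 ± 0.14 (adjusted p = 0.554, limma) for long against no access. S100b on S53527mRNA_s_at read 13.54, 13.50 and 13.35 with no access and 13.87, 13.73 and 13.75 with long access (0.32 ± 0.07, adjusted p = 0.036, limma). Vim read 10.24, 10.23 and 10.30 with no access and 10.60, 10.59 and 10.57 with long access (0.33 ± 0.07, adjusted p = 0.033, limma). Both lie near the threshold: leaving out any 1 septal array other than no access 1 and short access 3 for S100b, or any of the 6 compared for Vim, gave an adjusted p over 0.05 (up to 0.134 and 0.0972, limma). The spike-in mean of the long access arrays, 11.08 to 11.19, lay above the 10.58 to 11.05 of the others. With it as a covariate S100b was 0.38 ± 0.11 (adjusted p = 0.222) and Vim 0.28 ± 0.11 (0.470), and with the beta-actin 3' to 5' difference they were 0.32 ± 0.08 (0.0593) and 0.33 ± 0.08 (0.0560, limma), sizes near those without a covariate. Septal Kcnj10 on U27558_at was called with either, at 0.85 ± 0.15 and 0.76 ± 0.11. With short against no access and long against short access no member was called, against 1.9% and 2.04% of all.

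In the ventral tegmental area 2 were called with long against no access, both higher, where 2.91% of 722 were called. S100b on rc_AI146214_at read 8.46, 8.54 and 8.80 with no access, 8.76, 8.85 and 8.81 with short access and 9.16, 9.72 and 9.59 with long access. Long access lay above both other groups, by 0.89 ± 0.15 (1.85-fold, adjusted p = 0.00718) and 0.68 ± 0.15 (1.61-fold, 0.0256, limma), the latter the only call among members for long against short access, where 2.63% of all were called. That call is lost, with an adjusted p of up to 0.137, without either of long access arrays 2 and 3 or any short access array. S53527mRNA_s_at did not move with it, at 14.06 to 14.23 with no access and 14.11 to 14.20 with long access (0.02 ± 0.06, adjusted p = 0.921, limma). Apoe on S76779_s_at read 14.57, 14.48 and 14.60 with no access, 14.73, 14.77 and 14.87 with short access and 14.93, 14.85 and 15.01 with long access, which was 0.38 ± 0.06 over no access (1.30-fold, adjusted p = 0.00718, limma). Over 13 changed settings this ran from 0 to 0.47, and 6 of them lost the call. On X04979_at the groups overlapped, at 0.23 ± 0.10 (adjusted p = 0.294, limma). Same-numbered no and long access arrays deviated together here (r from 0.105 to 0.311 over 3 pairs), and with the number as a block this difference was called too (0.23 ± 0.06, adjusted p = 0.0388, limma), where 6.51% of all were. With short against no access no member was called, against 0.831% of all. The array controls moved with these values: antisense means were 7.07 to 7.13 with no access, 7.32 to 7.49 with short and 7.82 to 8.16 with long access, and spike-in means 11.40 to 11.68, 11.85 to 12.01 and 12.25 to 12.44, without overlap. With the spike-in mean in the fit S100b was at 1.82 ± 0.46 (adjusted p = 0.391) against no and 1.14 ± 0.25 (0.166) against short access, and Apoe at 0.47 ± 0.22 (0.566, limma). With the beta-actin difference they were at 0.80 ± 0.29 (0.389), 0.71 ± 0.17 (0.0530) and 0.43 ± 0.12 (0.203, limma), so no call was left under either. The part of the antisense controls was not tested. The calls of the septum and the ventral tegmental area were also lost with 1 spread for all regions.

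In the nucleus accumbens, amygdala and medial prefrontal cortex no member was called in any contrast. Hardly any other probe set was called there: 0% were called in the nucleus accumbens in all 3 contrasts and in the medial prefrontal cortex likewise, and in the amygdala 0.137% with long against no access and 0% otherwise. The nucleus accumbens members kept within -0.31 and 0.36 on the log2 scale. In the amygdala, Vim was singled out after its values were seen: it read 9.78, 9.57, 10.71 and 10.20 with no access, 9.24, 9.65, 9.57 and 9.61 with short access and 9.32, 8.93, 9.10 and 8.87 with long access. Every long access array lay below every no access array, by 1.01 ± 0.22, and the adjusted p was 0.163 (limma). It was 0.0469 without no access array 2, 0.342 without array 3 (-0.80 ± 0.19), whose antisense controls stood apart, and 0.0237 when p-values of all 18 regional contrasts were adjusted together. Of the 2 tested genes of choroid plexus, ependyma and meninges, Igf2 was lower there, at -1.49 ± 0.22 (adjusted p = 0.00818, limma), the only call of that comparison, and Igfbp2 was at -1.22 ± 0.33 (0.406), not called. Their summed level was 11.53 to 12.45 with no access, 10.81 to 11.78 with short and 10.37 to 10.73 with long access. Their part in the Vim values was not tested. Kcnj10 on U27558_at differed more on average for long against short access, at 1.05 ± 0.81, but its short access arrays ran from 5.00 to 8.96 (adjusted p = 0.959, limma). In the medial prefrontal cortex Kcnj10 on X83585cds_s_at and S100b on rc_AI146214_at were too dim to be tested, and of the other 6 the largest differences were those of Kcnj10 on U27558_at (-1.19 ± 0.86) and Vim (-1.12 ± 0.51) for long against no access, both within overlapping arrays.

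For the mean of the 6 regions no member was called in any contrast, against 1.17% of 858 probe sets for long against no access, 0.816% for short against no access and 0.233% for long against short access. At an unadjusted p under 0.05 stood Vim alone, at -0.37 ± 0.12 for long against no access (adjusted p = 0.133) and -0.28 ± 0.12 for long against short access (0.347, limma). Leaving out no access array 1 or long access array 1 of the medial prefrontal cortex brought the first to adjusted p = 0.0391 (-0.44 ± 0.12) and 0.0098 (-0.47 ± 0.11, limma).

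Whether the lateral hypothalamus differed from the other regions was tested as its access difference minus the mean of the other 5. For long against no access 2 members were called, both Apoe, where 12.8% of all were called: -0.54 ± 0.10 on S76779_s_at (adjusted p = 0.000184) and -0.65 ± 0.15 on X04979_at (0.0024, limma). For short against no access 1 was called, Apoe on S76779_s_at at -0.36 ± 0.10 (adjusted p = 0.0204, limma), against 6.88%, and for long against short access none, against 0.117%. The short access call was lost when lateral hypothalamus array 4 with no access, or array 1 or 2 with short access, was left out, with adjusted p up to 0.0773 (-0.32 ± 0.11, limma). S100b on rc_AI146214_at, lower in the lateral hypothalamus and higher in the ventral tegmental area, had the largest difference at -1.42 ± 0.52 (adjusted p = 0.0624, limma). For Kcnj10 the lateral hypothalamus was not shown to differ from the other regions, at 0.72 ± 0.60 and 0.44 ± 0.38 for long against no access (adjusted p = 0.513 and 0.526, limma). Each of the Apoe differences uses as its reference the lateral hypothalamus arrays with no access, whose antisense controls stood at 7.84 to 8.33, and the part of that separation was not tested. With quantile normalization, which nearly fixes the brightest probe sets (X04979_at was brightest on 58 of 63 arrays), none of the 3 was called.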

How the data were processed

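Total RNA of each region (1 to 5 µg) was made into biotin-labelled cRNA and hybridised, per the labels' protocols. The deposited values are MAS5 signal intensities, per the submitters' processing notes, 1 per probe set and array. Their 2% trimmed mean was 251 on every array in the deposited table, so the authors had scaled them. Probe sets were named from GEO's platform annotation.

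Intensities were rescaled so that the 2% trimmed mean, controls left out, was 500, floored at 32 and put on the log2 scale. For access within a region, probe sets whose mean log2 signal in that region lay under that of a signal of 100 were left out. The fit of 63 arrays kept every probe set that reached this level in at least 1 region. Differences were tested with limma 3.58.1 in R 4.3.3 (lmFit, eBayes with an intensity trend), 1 fit per region for access and 1 fit of 63 arrays for the other comparisons, with Benjamini-Hochberg adjustment. Neighbouring regions and array controls were tested by exact permutation in Python 3.11.15 with SciPy 1.17.1. The fits were tested on simulated data. The number of arrays limits the precision. No arrays were duplicates (highest correlation between 2 arrays 0.977).

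The members, gene lists and tests were chosen with earlier results of these data known. Named genes are the members and, for each, the 4 genes most like its brightest probe set by Pearson correlation over 18 group means. Up to 4 genes per list with the smallest p in the lateral hypothalamus were also named. The other list genes named there, Igf2, Igfbp2 and Vim in the amygdala, and the genes closest by Spearman correlation were added after their values were seen. Same-numbered arrays were taken as paired where every pair of the 2 groups deviated together (r over 0.1), which held in 5 of 18 regional comparisons; the pairing comes from the data alone. Alternatives covered scaling, floor, filter, trend, weights, covariates, shared probes, leaving out arrays and a replicate block. Whether an array holds RNA of several rats is not stated.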

Additional observations from a re-analysis of the deposited data

Results flagged for a closer look

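Among 72 groups of 4 arrays, 2 had an array far from the other 3, both of the dim S100b probe set rc_AI146214_at; chance alone flags about 1 in 20 groups. In the nucleus accumbens with long access, array 2 read 7.66 and the others 6.28 to 6.44. In the lateral hypothalamus with no access, array 1 read 8.84 and the others 9.18 to 9.20.

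Apoe differed in its access effect between the lateral hypothalamus and the mean of the other 5 regions, by -0.54 (S76779_s_at) and -0.65 (X04979_at) for long against no access and by -0.36 (S76779_s_at) for short against no access, on the log2 scale. In the ventral tegmental area S76779_s_at was higher with long access by 0.38 ± 0.06, a call lost under 6 of 13 changed settings. The long access arrays there had antisense controls of 7.82 to 8.16, against 7.07 to 7.49 on the other 6. The lateral hypothalamus arrays with no access also had higher antisense controls than the rest of that region. The part of these controls in the values was not tested.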

How the results depend on the processing

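Of 279 values of the access differences named above, each under 1 changed setting, 230 kept direction and side of the threshold, 48 fell below it, 1 passed it and none reversed; over the regional differences 366 of 393 kept both, 23 fell below it and 4 reversed. In the lateral hypothalamus the count for long against no access was 6, but 3 with all arrays in 1 fit and 2 when the spike-in level was a covariate. For short against no access it was 3, but 1 without probe sets that can cross-hybridise and 1 in the single fit. For long against short access it was 2, but 1 and 0 under those settings. In the other 5 regions the count of 6 became 3 with quantile normalization, 3 with no filter, 2 with no intensity trend, 0 in the single fit and 1 when either the spike-in level or the 3' to 5' beta-actin ratio was a covariate, the latter chosen after seeing the data. For the lateral hypothalamus minus the other 5 regions the count of 3 became 0 with quantile normalization, 8 with array weights and 1 without cross-hybridising probe sets. That setting left 4 of the 8 member probe sets, so the 34 regional calls became 19. All 4 reversals came with quantile normalization, for Apoe: for S76779_s_at the lateral hypothalamus was at -0.0052, the nucleus accumbens at 0.016 and the ventral tegmental area at -0.13, and for X04979_at the last was at -0.0061 on the log2 scale. The cause was not tested for any setting. Quantile normalization holds the brightest probe sets near 1 value by construction. The -0.13 of S76779_s_at in the ventral tegmental area was nevertheless called, with an adjusted p of at most 0.037 (limma).

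Replicate numbers recur across access groups, and every same-numbered pair deviated together (r over 0.1) in 5 of 18 comparisons: long against short access in the lateral hypothalamus, amygdala and medial prefrontal cortex, short against no access in the last, and long against no access in the ventral tegmental area. In these the replicate block changed the calls given above for Apoe and Vim and no other member call. In the rest not every pair did, and the labels give nothing beyond the number. With the replicate block the counts were 5 for short against no access and 4 for long against short access in the lateral hypothalamus, 13 in the other 5 regions and 5 for the lateral hypothalamus minus the others. The block also raised the share of all probe sets called in the comparisons where that share is given above. These counts are therefore not read as a result about the members. In the septum 18 of 18 comparisons of an array with another group were best with its own number, which is a hint from the data and not from the design. With the block there, the adjusted p for long against no access was 0.00941 for S100b on S53527mRNA_s_at and 0.0235 for Vim (limma). Calls were added for Apoe on S76779_s_at (long against no access, 0.0235), Kcnj10 on U27558_at (short against no access, 0.0396, and long against short, 0.034) and S53527mRNA_s_at (long against short, 0.0366, limma).

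Leaving out 1 array at a time gave 5 to 7 calls for long against no access, 3 to 5 for short against no access and 2 to 3 for long against short access in the lateral hypothalamus, 4 to 7 in the other 5 regions, 0 to 1 for the mean of 6 regions, 2 to 4 for the lateral hypothalamus minus the others, 33 to 37 between regions and 17 to 21 neighbouring pairs. Over all probe sets the 3 lateral hypothalamus comparisons had 176 to 211, 114 to 167 and 31 to 64 calls when 1 array was left out. Values at the floor have no order, and 3 or 4 arrays a group limit the precision. Signals near saturation were not marked in the table used here.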

Other observations

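Apart from the 5 members, the other astrocyte genes had their own regional counts. In the septum, where 50.9% of all probe sets were called, 9 of 10 were called higher against the average of the 5 other regions and none lower, with a median of 0.54 against 0.04 over all probe sets. In the medial prefrontal cortex (67.2% called) 1 was higher and 6 lower, with a median of -0.55 against -0.11. In the ventral tegmental area (68.5% called), where S100b and Apoe were highest, 3 were higher and 3 lower (median 0.09 against 0.01). Oligodendrocyte genes, some of which share cells with Kcnj10 and S100b, were called higher for 8 of 8 in the lateral hypothalamus (median 1.05 against 0.03 over all, 55.5% called), and for 7 of 8 in both the septum (0.70 against 0.04) and the ventral tegmental area (1.01 against 0.01). They were called lower for 7 of 8 in the amygdala (-1.02 against 0.03, 50.1% called) and for 8 of 8 in medial prefrontal cortex (-1.70 against -0.11).

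Within groups, arrays that were high in Kcnj10 on U27558_at were also high in Gja1: over the deviations of 63 arrays from their group means r was 0.675, with the amygdala and medial prefrontal cortex giving the widest spread. Between Gja1 and the bright S100b probe set the same r was -0.578. These are descriptions over arrays that share a normalization.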
